A study of Drosophila melanogaster with 6 samples.

Results

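The 10 genes described here encode enzymes of glycolysis and of lactate formation in *Drosophila melanogaster*: Hex-A, Pgi, Pfk, Ald1, Gapdh1, Gapdh2, Pgk, Eno, PyK and Ldh. The rule names them and uses no measured value, though it was written with earlier results of these data known, and they are 10 of 17525 genes listed. Each gene identifier in the transcript tables was matched to its FlyBase symbol, and the gene's value summed the FPKM of its exactly matching, contained, junction-sharing and otherwise exon-overlapping transcripts. FPKM counts fragments scaled to transcript length and to the size of the library, so that levels can be set side by side between genes.

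All samples are whole wing imaginal discs, the epithelial sacs of the larva from which the wing and part of the thorax arise. The control genotype was MS1096-Gal4 (3 libraries), and the knockdown genotype was MS1096-Gal4>dNKAP RNAi (3 libraries), so all discs carried the driver. MS1096-Gal4 is an insertion at Beadex that acts mainly in the wing pouch, and a whole disc therefore also holds cells with little or no hairpin. The age of the larvae and the number of discs per library are not stated. The sources do not say whether replicates are separate animals or crosses, and p-values therefore reflect only the spread among these libraries, possibly technical.

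Glycolysis splits glucose into pyruvate. Hexokinase traps the sugar as a phosphate, phosphofructokinase commits it to breakdown, aldolase cuts it, and the later enzymes form ATP, NADH and pyruvate. Lactate dehydrogenase turns pyruvate into lactate and restores NAD, and larval fly tissues are known for strong glycolysis with lactate formation during growth. In wing discs, raised Ldh is a known feature of several overgrowth models.

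In the dNKAP RNAi discs, Hex-A was the 1 gene of the 10 that rose. Its level was 1.37-fold that of controls. No gene of the 10 fell, and 6 tested genes did not pass the threshold. Gapdh2, Eno and Ldh were listed at 0 in every library and could not be tested. Outside the 10, fbp, which encodes the enzyme that reverses the phosphofructokinase step, fell. Genes were tested with limma on log2(FPKM + 0.5), with Benjamini-Hochberg adjustment over the 6506 genes that averaged 1 FPKM or more, and a threshold of 0.05. Of those genes 3.72% passed, 3.21% as higher and 0.507% as lower. Fold changes on this scale understate the change of low genes.

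The libraries listed 33445 to 33742 transcripts each, and read depth times transcript length came to 4.14 to 6.44 gigabases per library. CG6066, which encodes dNKAP, measured 22.8 to 26.6 FPKM in control discs and 11.4 to 13.96 FPKM in dNKAP RNAi discs, a log2 change of -0.90 (limma adjusted p = 0.0146). That call ended without control replicate 1 (0.0553), control replicate 3 (0.0504) or dNKAP RNAi replicate 2 (0.0584), and for its most abundant transcript (log2 change -1.31, limma adjusted p = 0.115). Of 12 wing disc markers 11 were tested, and their summed level was 511 to 538 FPKM in control discs and 563 to 591 FPKM in dNKAP RNAi discs, with en listed at 0. In bulk discs, fewer cells of a type and less RNA per cell cannot be told apart.

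Each transcript carries a percent that relates its FPKM to the most abundant transcript of its assembled locus, and in 493 to 543 loci per library, 5.68% to 6.24% of those above 0, no listed transcript reached 100 percent. The most abundant transcript of such a locus was not among those analysed here. This held in at least 1 library for 852 of the 6506 tested genes, 13.1%. Of the 10 genes, Hex-A, Pfk, Ald1, Gapdh1 and PyK were listed with their most abundant transcript in every library, Pgi and Pgk in none where they were above 0, and Gapdh2, Eno and Ldh had no value above 0.

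Hex-A encodes a hexokinase, which phosphorylates glucose at the entry of the pathway (FBgn0001186; chromosome X, 9585675 to 9589813, plus strand, dm6). Its level was 44.6, 44.4 and 44.6 FPKM in control replicates 1 to 3 and 58.9, 62.1 and 61.6 FPKM in dNKAP RNAi replicates 1 to 3. Every dNKAP RNAi library lay above every control, and the coefficient of variation of the controls was 0.184%. The deposited bounds are wider, with half-widths of 6.19%, 5.71% and 6.30% of the value for its main transcript in control replicates 1 to 3. Group means were 44.5 ± 0.0820 and 60.9 ± 1.70 FPKM (SD, n = 3 each), and the log2 change was 0.45 (SE 0.05, 95% interval 0.33 to 0.57, limma adjusted p = 0.0102). The call held without each library in turn, with limma adjusted p between 0.0337 and 0.0458. It also held among the 4986 genes above 0 in every library and listed with their most abundant transcript throughout, of which 7.12% passed and 1 was among the 10.

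Both listed transcripts of Hex-A were above 0 in controls and only the shorter one in dNKAP RNAi. The transcript FBtr0071361 is a single exon of 2512 bases from 9585890 to 9588401, with a coding region for 541 residues. It measured 41.2, 41.3 and 41.4 FPKM in control discs and 58.9, 62.1 and 61.6 FPKM in dNKAP RNAi discs. The longer transcript FBtr0333335 is a single exon of 4139 bases that starts upstream and ends downstream of the first, with a coding region for 448 residues and a 3′ UTR of 1969 bases in place of 557. It measured 3.43, 3.16 and 3.16 FPKM in control discs and was listed at 0 in all dNKAP RNAi libraries, with a deposited upper bound of at most 0.0272 FPKM. The long form thus made up 7.10% to 7.70% of the gene's FPKM in control discs.

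The use of the Hex-A transcripts was tested with limma's diffSplice over 4388 transcripts, of which 2.14% passed. The Hex-A transcripts passed, with the same diffSplice adjusted p of 2.10e-04 for both, since each was tested against the other. The long form met the required mean through the controls alone, and with a mean of at least 5 FPKM it was not tested. The test therefore compares a low form with a group listed at 0. Its p-value is not taken as evidence of a change in use, and no size is given. Another annotated transcript, FBtr0071362, is the same exon as FBtr0071361 with a shorter coding region, for 448 residues, and had no value of its own. Reads of these transcripts cannot be told apart, so the level given for FBtr0071361 does not separate their coding forms. The short form alone passed (log2 change 0.55 with an SE of 0.08, limma adjusted p = 0.0114), from 41.3 ± 0.134 to 60.9 ± 1.70 FPKM (SD, n = 3 each). This was in a fit of the most abundant transcript of each locus, in which 4.69% of genes passed. It is not a separate result, because the short form holds all of the gene's FPKM in dNKAP RNAi and most of it in controls. The long form spans the short one, and how shared reads were divided between them is not stated.

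**Figure D1:**
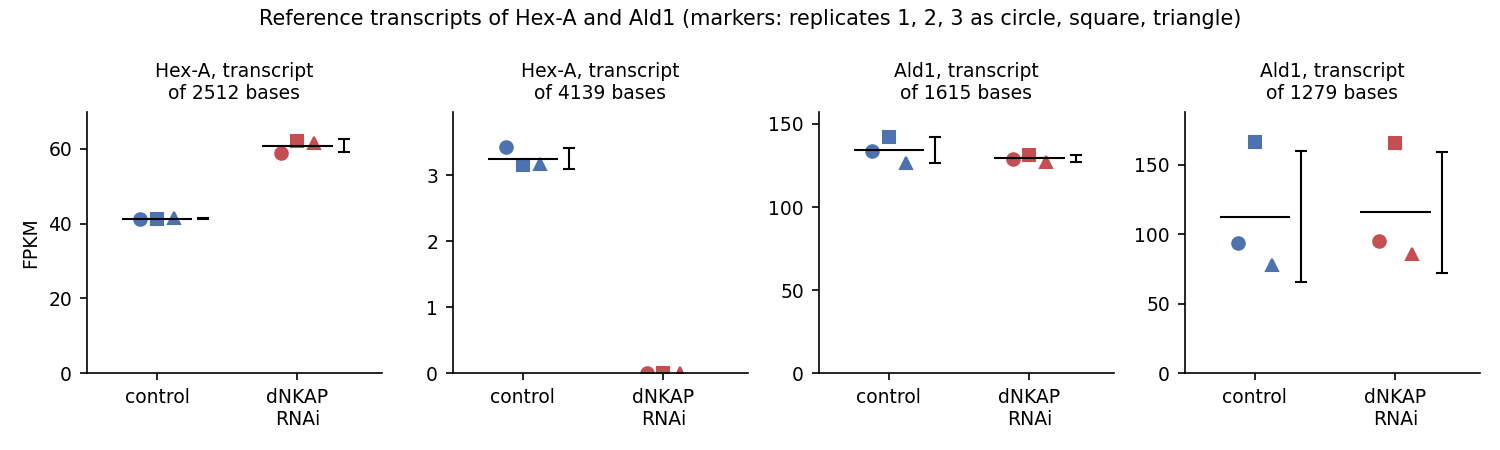
FPKM of the listed reference transcripts of Hex-A and Ald1 in each library, with circles, squares and triangles for replicates 1, 2 and 3, a line for the mean and a bar for the SD (n = 3) where all libraries of a group were above 0. The long Hex-A transcript was at 3.16 to 3.43 FPKM in control discs and at 0 in dNKAP RNAi, and the short Ald1 transcript stood highest in replicate 2 of both groups.

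Pgi encodes glucose-6-phosphate isomerase, which turns glucose 6-phosphate into fructose 6-phosphate (FBgn0003074; chromosome 2R, 8910900 to 8914069, minus strand). Its listed value was 56.5, 0 and 29.8 FPKM in control discs and 44.9, 30.0 and 0 FPKM in dNKAP RNAi discs. Each group held 1 library at 0, the groups overlapped, and the log2 change was -0.11 with an SE of 2.59 (limma adjusted p = 0.990). All of this value came from assembled transcripts of 1556 to 1696 bases that share junctions with FBtr0088680, while FBtr0088681, an annotated form of 2277 bases, was not analysed here.

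The percent column gives the level of the most abundant Pgi transcript where the assembled form was above 0, and every listed transcript of that locus belonged to Pgi. The assembled form stood at 72% and 34% of it in control replicates 1 and 3 and at 54% and 40% in dNKAP RNAi replicates 1 and 2. The most abundant transcript was therefore at 78.5 and 87.7 FPKM in these control libraries and at 83.2 and 75.04 FPKM in these dNKAP RNAi libraries. The rounding of the percent allows 77.9 to 79.0 and 86.4 to 89.0 FPKM in control discs, and 82.4 to 83.9 and 74.1 to 76.0 FPKM in dNKAP RNAi discs. These levels overlapped between the groups, and their log2 change was -0.07 (limma adjusted p = 0.818, n = 2 each, without control replicate 2 and dNKAP RNAi replicate 3). The assembled form of Pgi varied more between libraries than the computed transcript did.

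Pfk encodes phosphofructokinase, the committing step of glycolysis (FBgn0003071; chromosome 2R, 10109740 to 10117457, plus strand). Its level was 77.95, 77.6 and 71.0 FPKM in control discs and 81.2, 82.6 and 84.8 FPKM in dNKAP RNAi discs. Every dNKAP RNAi library lay above every control, by a margin smaller than the spread of the controls. Group means were 75.5 ± 3.95 and 82.9 ± 1.81 FPKM (SD, n = 3 each), and the log2 change of 0.13 did not pass (SE 0.06, 95% interval -0.01 to 0.28, limma adjusted p = 0.294). All of the listed FPKM came from FBtr0088421, of 3188 bases with a coding region for 788 residues.

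Ald1 encodes aldolase, which cuts fructose 1,6-bisphosphate into a pair of triose phosphates (FBgn0000064; chromosome 3R, 26254069 to 26261591, minus strand). Its level was 228, 309 and 205 FPKM in control discs and 224, 297 and 213 FPKM in dNKAP RNAi discs. Replicate 2 was highest in both groups, and the groups overlapped. Group means were 247 ± 54.7 and 245 ± 45.7 FPKM (SD, n = 3 each), and the log2 change was -0.01 (SE 0.20, 95% interval -0.52 to 0.51, limma adjusted p = 0.994). Exons of the antisense gene asRNA:CR44321 overlap Ald1, and since the use of strand is not stated their reads cannot be told apart.

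The high values of Ald1 in replicate 2 came from 1 transcript. FBtr0310661, of 1615 bases with a coding region for 363 residues, measured 134, 142 and 127 FPKM in control discs and 129, 132 and 127 FPKM in dNKAP RNAi discs. FBtr0084995, of 1279 bases with a coding region for 361 residues and another last exon, measured 93.6, 166 and 77.9 FPKM in control discs and 95.5, 166 and 85.9 FPKM in dNKAP RNAi discs. In replicate 2 of both groups the shorter form was the more abundant, at 53.9% of the gene's FPKM in the control and 55.8% in dNKAP RNAi, against 38.1% to 42.6% in the other libraries. The use of the forms did not pass between groups (diffSplice adjusted p = 0.988).

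Gapdh1 and Gapdh2 encode glyceraldehyde-3-phosphate dehydrogenases, which form NADH. Gapdh1 (FBgn0001091; chromosome 2R, 7791901 to 7793380, minus strand) was the most abundant of the 7 genes with a listed value above 0. Its level was 426, 345 and 374 FPKM in control discs and 414, 410 and 414 FPKM in dNKAP RNAi discs. The dNKAP RNAi libraries lay inside the range of the controls. Group means were 382 ± 40.9 and 412 ± 2.37 FPKM (SD, n = 3 each), and the log2 change was 0.12 (SE 0.09, 95% interval -0.10 to 0.33, limma adjusted p = 0.518). Gapdh1 and Gapdh2 are close paralogs, and how reads that match both were divided is not stated.

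Pgk encodes phosphoglycerate kinase, the first step of glycolysis that yields ATP (FBgn0250906; chromosome 2L, 2746880 to 2753068, minus strand; its exons overlap Cwc25). Its listed value was 43.9, 0 and 52.6 FPKM in control discs and 50.9, 48.4 and 44.7 FPKM in dNKAP RNAi discs. Control replicate 2 stood apart at 0 and the other libraries overlapped, so that the log2 change of 2.20 (limma adjusted p = 0.585), with an SE of 1.91, became -0.00239 without that library. The listed value came from FBtr0330716, of 1860 bases, which stood at only 13% and 20% of the most abundant transcript in control replicates 1 and 3 and at 19%, 18% and 17% in dNKAP RNAi replicates 1 to 3.

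Every listed transcript of the locus belonged to Pgk. By the same computation the most abundant transcript of the locus was at 338 and 263 FPKM in control discs. In dNKAP RNAi discs it was at 268, 269 and 263 FPKM. This transcript was not listed, and since exons of Cwc25 overlap, its assignment to Pgk is an assumption. Rounding allows 325 to 351 FPKM in control replicate 1, and no computed value in the other libraries exceeded 276 FPKM. Control replicate 1 was high and the other libraries lay together, with a log2 change of -0.16 (limma adjusted p = 0.561, n = 2 without control replicate 2, and n = 3). FBtr0077739, an annotated form of 1486 bases with the same coding length, was not analysed here. If the computed level belongs to Pgk, Pgk stood beside PyK and Ald1 in level, whereas its listed value stood near that of Hex-A.

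**Figure D2:**
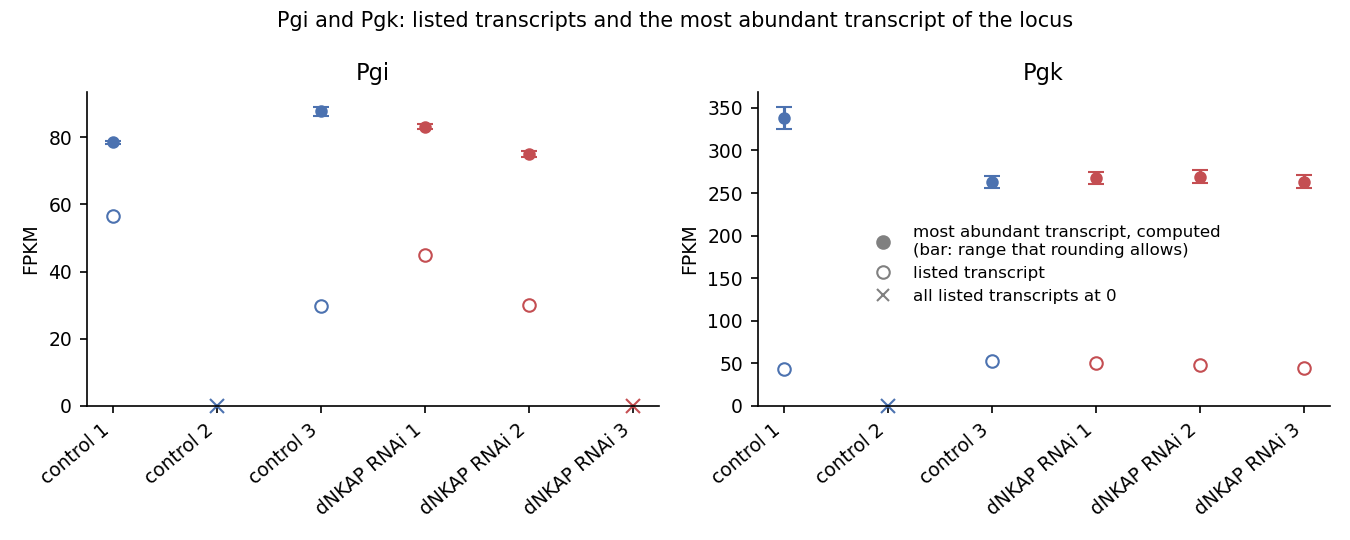
FPKM of Pgi and Pgk in each library: open circles are the listed transcript, filled circles the most abundant transcript of the locus computed from the deposited percent, with bars for the range that rounding allows, and crosses mark libraries in which every listed transcript was at 0. The filled circles of Pgk lie at 263 to 338 FPKM, far above the open circles at 43.9 to 52.6 FPKM.

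PyK encodes pyruvate kinase, the last step of glycolysis, which forms pyruvate and ATP (FBgn0267385; chromosome 3R, 22367536 to 22372746, plus strand). Its level was 274, 245 and 248 FPKM in control discs and 299.7, 319 and 315 FPKM in dNKAP RNAi discs. Every dNKAP RNAi library lay above every control. Group means were 256 ± 16.2 and 311 ± 10.1 FPKM (SD, n = 3 each), and the log2 change of 0.28 did not pass over all genes (SE 0.06, 95% interval 0.12 to 0.44, limma adjusted p = 0.0870). It passed after quantile normalization, at a log2 change of 0.39 (limma adjusted p = 0.0239), and under no other setting tried.

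Gapdh2 (FBgn0001092; chromosome X, 15868145 to 15869661), Eno (FBgn0000579; chromosome 2L, 1724768 to 1729636) and Ldh (FBgn0001258; chromosome 3L, 6259105 to 6262694) were listed at 0 in all 6 libraries. Eno encodes enolase, which forms phosphoenolpyruvate. The listed values at 0 numbered 6 for Gapdh2, 30 for Eno and 18 for Ldh, with deposited upper bounds of at most 0.0857, 0.0539 and 0.0947 FPKM. These bounds apply to the listed transcripts and not to the genes. An annotated transcript of each gene was not analysed here: FBtr0332618 of Gapdh2, of 1377 bases, FBtr0077909 of Eno, of 1754 bases, and FBtr0077008 of Ldh, of 1391 bases. Enolase is an enzyme that every cell uses, and its listing at 0 says nothing about its level. No level and no comparison of lactate dehydrogenase expression can be read from the values analysed here.

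**Figure D3:**
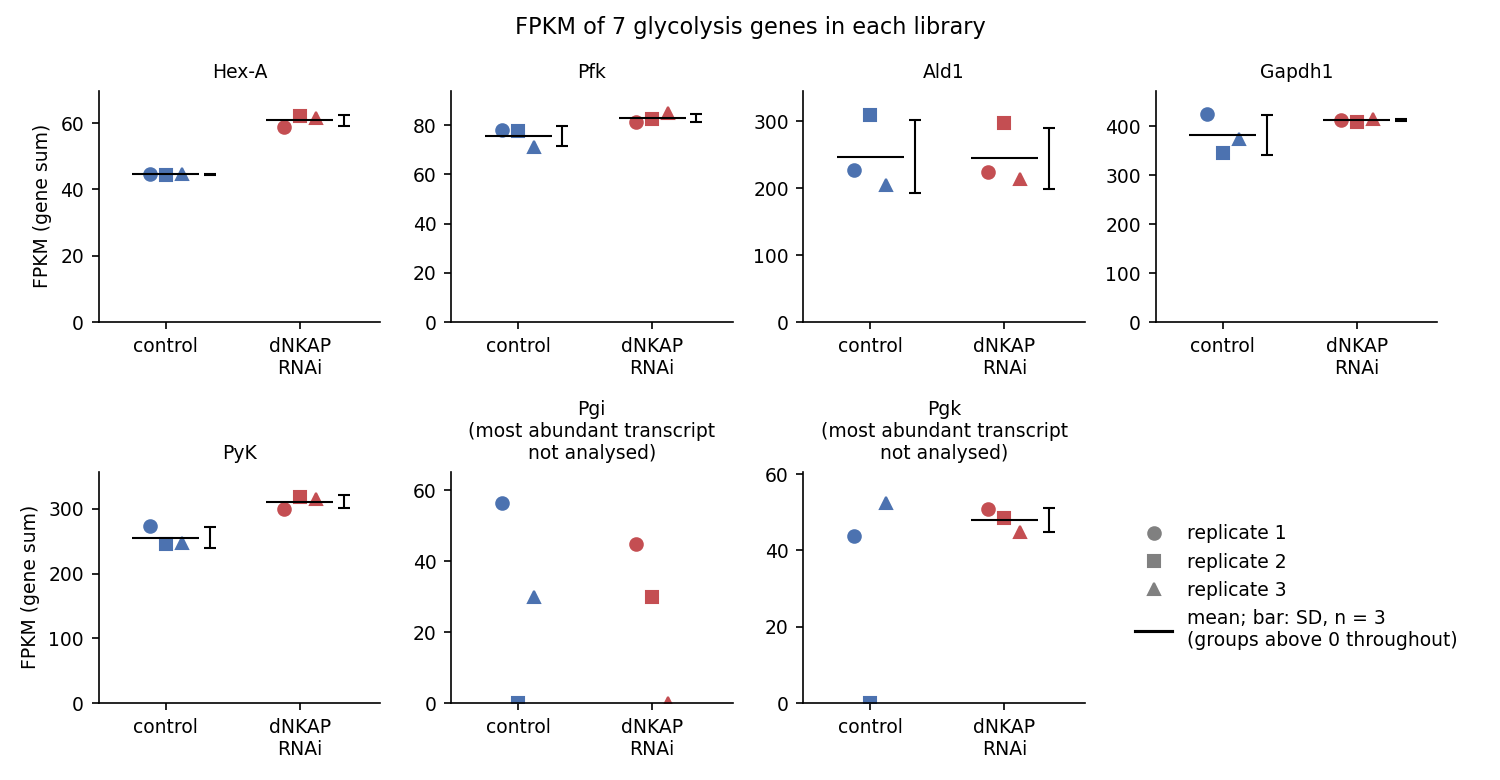
FPKM of the 7 genes above 0 in at least 1 library, with 1 marker per library, a line for the mean and a bar for the SD (n = 3) where all libraries of a group were above 0. Hex-A, Pfk and PyK show separated groups, the other genes overlap, and Pgi and Pgk hold libraries at 0.

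The groups of Hex-A, Pfk and PyK did not overlap, and all 3 were higher in dNKAP RNAi. Over all tested genes, 28.5% had groups that did not overlap, 17.3% with dNKAP RNAi higher. The median log2 change of the 7 tested genes was 0.13, the same as over the 5 with their most abundant transcript in every library, beside a median of 0.03 over all tested genes. Among the 5, the spread between replicates was widest for Ald1, and it was narrower in dNKAP RNAi than in controls for every gene but Hex-A. The deposited confidence bounds of transcripts of the 10 genes above 0 had half-widths of 4.49% to 16.5% of the value, with a median of 5.58%.

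The genes whose pattern over the 6 libraries was most like that of Hex-A were toc, CG2701 and CG10646, by Euclidean distance between centred log2 values among 5510 genes. The distances were 0.0511 for toc, 0.0922 for CG2701 and 0.0986 for CG10646. toc went from 40.4 ± 0.535 to 55.1 ± 2.63 FPKM and CG2701 from 36.5 ± 1.19 to 49.3 ± 1.55 FPKM (SD, n = 3 each), close to Hex-A in level as well. CG10646 was lower, at 13.0 ± 0.605 and 17.9 ± 0.878 FPKM. No such genes can be given for Ldh.

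Around the glycolytic core, fbp was the 1 gene that fell among 5 tested genes of other glycolytic and gluconeogenic steps, and none rose. fbp encodes fructose-1,6-bisphosphatase, which reverses the step of phosphofructokinase in gluconeogenesis (FBgn0032820; chromosome 2L, 19761587 to 19764136, minus strand). Its level was 95.8, 103.8 and 100.1 FPKM in control discs and 66.9, 70.7 and 69.1 FPKM in dNKAP RNAi discs. Every dNKAP RNAi library lay below every control. Group means were 99.9 ± 3.98 and 68.9 ± 1.92 FPKM (SD, n = 3 each), and the log2 change was -0.53 (SE 0.05, limma adjusted p = 0.00820), and the adjusted p lay between 0.0233 and 0.0402 without each library in turn.

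The most abundant transcript of fbp, FBtr0347410, was at 95.8, 92.2 and 100.1 FPKM in control discs. In dNKAP RNAi discs it was at 54.3, 60.9 and 56.9 FPKM (log2 change -0.74, limma adjusted p = 0.00643). This is no separate result, because the transcript held all of the gene's FPKM in control replicates 1 and 3 and most elsewhere. The ratio of fbp to Pfk in FPKM was 1.23, 1.34 and 1.41 in controls and 0.824, 0.856 and 0.815 in dNKAP RNAi. In listed FPKM, fbp thus stood above Pfk in the controls and below it in dNKAP RNAi. The ratio was not among the planned comparisons and was not tested. Since Pfk did not pass, it mostly restates the fall of fbp. Tpi, triose phosphate isomerase, was at 307 ± 22.5 and 298 ± 16.8 FPKM (SD, n = 3 each; limma adjusted p = 0.802). Pglym78, phosphoglycerate mutase, was listed above 0 in control replicate 1 alone, at 20.8 FPKM. In that library its most abundant transcript was not among those analysed, so the level of Pglym78 cannot be read from the listed values. Pfrx encodes the bifunctional enzyme that sets the phosphofructokinase activator fructose 2,6-bisphosphate. It too was listed above 0 in control replicate 1 alone, at 12.6 FPKM, and it did not pass (limma adjusted p = 0.589). Its values at 0 in the other libraries apply to the listed transcripts and not to the gene.

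**Figure D4:**
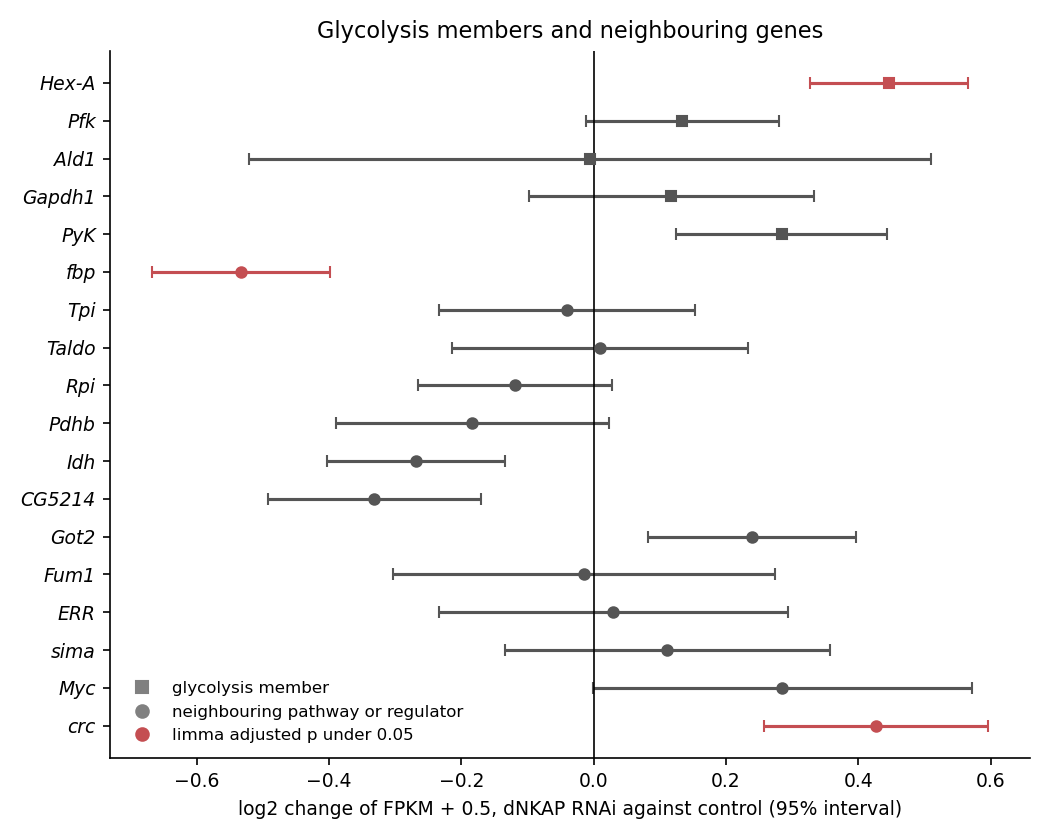
Log2 change of FPKM + 0.5 in dNKAP RNAi against control with 95% intervals from limma, for the 5 glycolytic genes and 13 genes of other steps and regulators that were listed with their most abundant transcript in every library. Hex-A and crc lie right of 0 and fbp left of 0 with an adjusted p under 0.05, and Ald1 has the widest interval of the genes shown, from -0.52 to 0.51. The 13 genes were picked after their values were seen, and named genes such as Glut1, Mct1 and Tret1-1, with wider intervals, are not drawn.

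Among 10 tested genes of glycogen, trehalose and sugar entry 1 passed, as higher, with a median log2 change of 0.18. This was Treh, trehalase, which splits the blood sugar of insects into glucose; its exons overlap Rbpn-5. Its listed level was 6.28, 6.26 and 6.40 FPKM in control discs and 31.1, 16.1 and 16.6 FPKM in dNKAP RNAi discs (log2 change 1.61, SE 0.27, limma adjusted p = 0.0435), with separated groups. In the controls, however, its most abundant transcript was not among those analysed. Computed from the percent, the most abundant transcript was at 12.1, 9.21 and 12.8 FPKM in control discs. In dNKAP RNAi discs the most abundant transcript was a listed one, at 31.1, 8.83 and 9.06 FPKM. These levels overlapped between the groups, dNKAP RNAi replicate 1 alone was high, and the call ended (log2 change 0.27, limma adjusted p = 0.806). Whether the same transcript is compared in both groups cannot be told. Over exact matches alone the sign turned (log2 change -0.75, limma adjusted p = 0.803). Without each library in turn the adjusted p of the listed level lay between 0.0111 and 0.124.

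Tps1, trehalose phosphate synthase, was listed at 0 in all control discs and at 2.56, 0.985 and 1.61 FPKM in dNKAP RNAi discs, below the mean required for a test. Glut1, a glucose transporter, was at 12.3 ± 2.05 and 8.95 ± 2.86 FPKM (SD, n = 3 each; limma adjusted p = 0.374). Glys, glycogen synthase, was at 106 ± 8.26 and 97.2 ± 1.96 FPKM (limma adjusted p = 0.379). Tret1-1, a trehalose transporter, was at 20.01 ± 1.26 and 38.0 ± 23.6 FPKM (limma adjusted p = 0.403), with a spread in dNKAP RNAi larger than the difference.

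In the pathways that branch from glycolysis or use its products, no tested gene passed. These were 5 genes of the pentose phosphate pathway, 3 of the glycerol phosphate shuttle, which also restores NAD, 6 of pyruvate entry into mitochondria, 2 of lactate and monocarboxylate transport and 16 of the citric acid cycle and malate shuttle. Their median log2 changes were 0.01, 0.44, -0.22, 0.69 and -0.06 in that order. Taldo, transaldolase of the pentose phosphate pathway, was at 204 ± 23.1 and 205 ± 3.70 FPKM, and Rpi, ribose-5-phosphate isomerase, at 206 ± 9.92 and 190 ± 7.21 FPKM (SD, n = 3 each). Gpdh3 and Gpo1, of the glycerol phosphate shuttle, were at 3.98 ± 2.02 and 6.26 ± 0.978 FPKM and at 2.73 ± 0.396 and 3.89 ± 0.689 FPKM; in 3 libraries the most abundant Gpdh3 transcript was not among those analysed.

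Pdhb, a subunit of pyruvate dehydrogenase, was at 145 ± 12.05 and 128 ± 7.50 FPKM, and Pdha, its partner subunit, at 68.3 ± 3.52 and 73.9 ± 6.82 FPKM (SD, n = 3 each). Their log2 changes were of opposite sign and neither passed, with limma adjusted p of 0.300 and 0.550. In 2 libraries the most abundant transcript of Pdha was not among those analysed. Mct1, a monocarboxylate transporter gene, was at 0.450, 0.654 and 0.989 FPKM in control discs and 1.63, 1.64 and 5.05 FPKM in dNKAP RNAi discs. The groups were separated at this low level, and the limma adjusted p was 0.238. CG8389, the other tested gene of monocarboxylate transport, was at 15.9 ± 1.40 and 16.7 ± 2.41 FPKM (limma adjusted p = 0.830).

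In the citric acid cycle list, Idh, an NADP-dependent isocitrate dehydrogenase, was the most abundant gene, at 567 ± 3.99 and 471 ± 23.5 FPKM (SD, n = 3 each; log2 change -0.27, limma adjusted p = 0.0682). CG5214, a subunit of the oxoglutarate dehydrogenase complex, was at 112 ± 6.18 and 88.6 ± 3.67 FPKM (limma adjusted p = 0.0631). Got2, the mitochondrial aspartate aminotransferase of the malate shuttle, was at 160 ± 6.44 and 189 ± 10.8 FPKM (limma adjusted p = 0.126). The groups of these 3 genes did not overlap, and none passed. Idh passed in 1 of 20 alternatives, as its most abundant transcript (log2 change -0.52, limma adjusted p = 0.0132). Without each library in turn its limma adjusted p was 0.139 to 0.170. CG5214 too passed in 1 of 20, among genes listed with their most abundant transcript (limma adjusted p = 0.0497). Both settings were chosen after seeing the data. Over exact matches alone the log2 change of CG5214 was 0.00864. Fum1, fumarase, was at 206 ± 18.9 and 204 ± 24.2 FPKM.

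**Figure D5:**
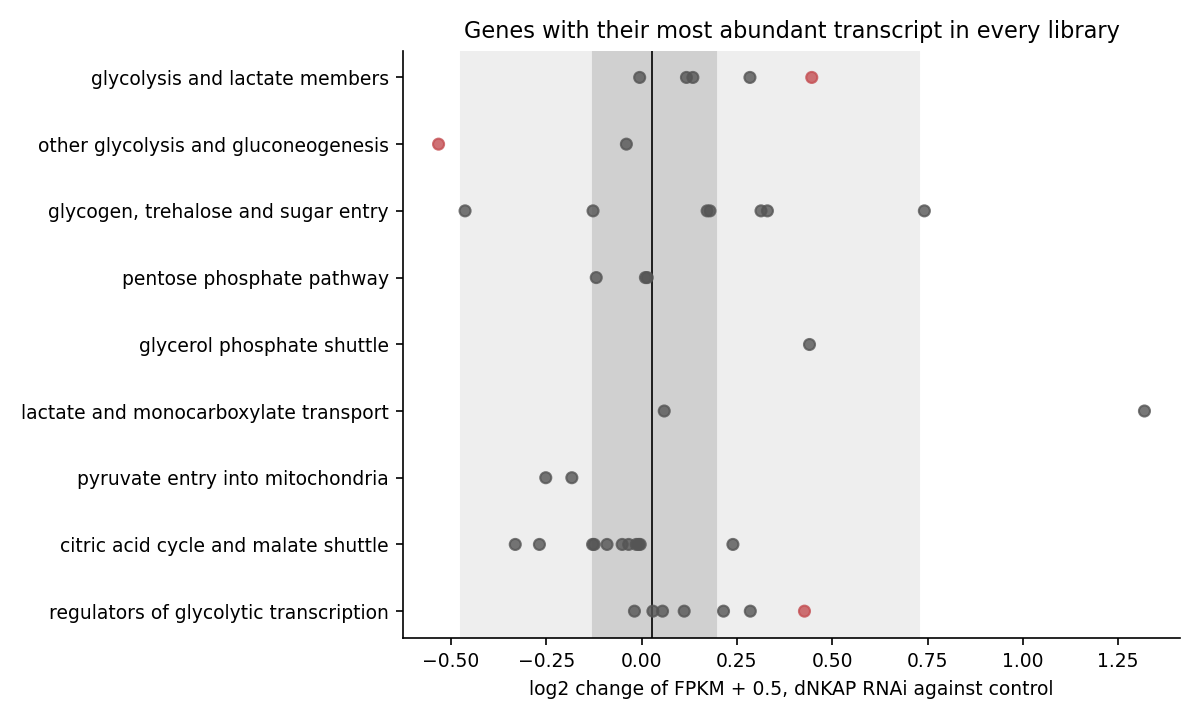
Log2 change of FPKM + 0.5 in dNKAP RNAi against control for each gene listed with its most abundant transcript in every library, by pathway; red marks a limma adjusted p under 0.05. The vertical line is the median of 4986 such genes (0.03), the dark band their 25th to 75th percentiles (-0.13 to 0.19) and the light band their 5th to 95th percentiles (-0.47 to 0.73), and fbp, Tret1-1 and Mct1 lie outside the light band.

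Of 12 tested regulators of glycolytic transcription 1 passed, as higher. This was crc, the fly ATF4, at 302 ± 17.9 and 406 ± 19.4 FPKM (SD, n = 3 each; log2 change 0.43, limma adjusted p = 0.0346), and the call ended without any 1 library, with an adjusted p of 0.0711 to 0.118. ERR, the nuclear receptor that turns on glycolytic genes before larval growth in the fly, was at 15.6 ± 1.80 and 15.8 ± 0.552 FPKM (limma adjusted p = 0.904). sima, the fly hypoxia-inducible factor alpha subunit, was at 47.6 ± 5.29 and 51.3 ± 2.30 FPKM (limma adjusted p = 0.585). Myc, a growth regulator, was at 54.8 ± 7.30 and 66.5 ± 3.40 FPKM (limma adjusted p = 0.265). Exons of another gene overlap crc, ERR, Myc, Got2, Fum1, Rpi, Gpdh3, Mct1, CG8389, Tps1, Pglym78 and Pfrx, and their values are uncertain because the use of strand is not stated.

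Of other tissues that can adhere to discs, fat body and trachea had summed marker levels that differed between the groups, though no tested marker passed. The summed level of 8 fat body markers was 1.94 to 73.8 FPKM in control discs and 173 to 590 FPKM in dNKAP RNAi discs, with Fbp2, Lsp1beta, Lsp2, Fatp1 and apolpp listed at 0. Fbp1, the most abundant of them over all libraries together, measured 25.1, 10.9 and 0.542 FPKM in control discs and 62.5, 137 and 561 FPKM in dNKAP RNAi discs. Lsp1gamma, a larval storage protein gene, measured 32.0, 5.03 and 0.947 FPKM in control discs and 186, 20.7 and 19.9 FPKM in dNKAP RNAi discs. The limma adjusted p was 0.178 for Fbp1 and 0.367 for Lsp1gamma, whose groups overlapped. Among dNKAP RNAi libraries Fbp1 was highest in replicate 3 and Lsp1gamma in replicate 1. Summed trachea markers were at 960 to 1168 FPKM in control discs and 742 to 904 FPKM in dNKAP RNAi discs. The most abundant of them was verm, and only 1 of the 6 had separated groups, with dNKAP RNAi lower. Summed markers of muscle, adult muscle precursors, haemocytes, salivary gland and glia had overlapping ranges. The part of these tissues in the changes of Hex-A and fbp was not tested.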

How the data were processed

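RNA of wing imaginal discs was sequenced on an Illumina NextSeq, and 1 table of transcripts per library was deposited, per the labels. FPKM was used as deposited by the authors, with its lower and upper bounds. The deposited signal is read coverage, averaged over the bases of a transcript, and gave the depth of each library. The deposited percent column was, in at least 99.995% of transcripts of loci with a transcript at 100, the FPKM as a rounded percent of the most abundant transcript of the locus; where no transcript of a locus reached 100, FPKM divided by this percent gave the level of the most abundant one, for percents of at least 10. The submitters' processing notes name FastQC, HTSeq, DESeq and the genome build dm6. Versions, aligner, annotation and strand use are not given in the sources. No read count was among the values used, so no count test was run. Transcripts of other classes held 0.267% to 3.70% of the FPKM.

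Names, positions and transcript structures were taken from Ensembl (BDGP6, the dm6 assembly), and 149 older identifiers were replaced. Groups were compared with limma 3.58.1 (R 4.3.3), with a mean-variance trend, a pseudocount of 0.5 FPKM and two-sided tests; tables were built in Python 3.11.15 with pandas 2.3.3 and numpy 2.4.6, and plots with matplotlib 3.10.9. The tests were tested on simulated data. Of simulated 1.5-fold changes, 17.9% were recovered over all tested genes and 49.3% among genes above 0 in every library. A gene that did not pass is therefore not shown to be unchanged. The rule for named genes, the members and all lists were chosen with earlier results of these data known. Named are all 10 members; from each pathway list up to 4 genes past the threshold or else the 2 most abundant; CG6066; and the 3 genes most like Hex-A. Tpi, Pglym78, Pfrx, Tps1, Glut1, Glys, Tret1-1, CG5214, Got2, ERR, sima, Myc, Fbp1 and Lsp1gamma were named after their values were seen. Alternatives were other pseudocounts, filters, scalings, transcript classes, variance models, a replicate block and leaving out each library.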

Additional observations from a re-analysis of the deposited data

How the results depend on the processing

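Of 6506 tested genes 209 were higher and 33 lower, and 1235 had an unadjusted p under 0.05. With the replicate block 72 were higher and 5 lower, 0 of the 10 genes passed and the adjusted p was 0.117 for Hex-A, 0.0740 for fbp and 0.134 for CG6066. Same-numbered libraries correlated at 0.0170, 0.0683 and 0.0642 over 5511 genes, and differently numbered ones at -0.116 to 0.0550. The labels do not say that a number marks a shared batch, animal or day, so the main fit had no block. Whether the numbers pair libraries was not settled. The lower genes numbered 60 without the filter, 58 after median-ratio scaling, 62 after quantile normalization (beside 187 higher), 59 among genes above 0 in every library, and 86 among genes listed with their most abundant transcript, a setting chosen after seeing the data. Without each library in turn, 126 to 159 were higher and 28 to 34 lower. Without dNKAP RNAi replicate 1 or 3 the higher genes numbered 126 and 135. After quantile normalization 2 of the 10 genes passed, and PyK was the second, at a log2 change of 0.39. Transcripts past the threshold for usage numbered 94, 52 with a mean of at least 5 FPKM, 77 with the block and 145 to 165 without each library; 456 had an unadjusted p under 0.05. Hex-A passed in 19 of 20 alternatives. Of the 10 genes, signs turned for Pgi, Ald1 and Pgk, none of them called. Pgi ranged from -2.23 to 1.97 without each library (1.18 without control replicate 1, 0.73 without control replicate 3, 1.97 without dNKAP RNAi replicate 3). Ald1 was at 0.11 after quantile normalization, 0.0188 with array weights and -0.15 to 0.17 without each library (0.17 without control replicate 2, 0.05 without dNKAP RNAi replicate 1, 0.09 without dNKAP RNAi replicate 3). Pgk was at -0.16 as the most abundant transcript of its locus, a setting also chosen after seeing the data. Without each library Pgk ranged from -0.00239 to 3.36. The cause of these shifts was not tested.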
